A study of Mus musculus with 13 samples.

Results

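The subunits of the ionotropic and metabotropic receptors for glutamate and GABA were followed through demyelination and recovery in bulk RNA-seq of mouse brain. The 39 genes were taken as the protein-coding entries of the deposited annotation whose symbols name a subunit of the AMPA receptor (4 genes), the NMDA receptor (7), the kainate receptor (5), the metabotropic glutamate receptors (8), the GABA-A receptor of the alpha, beta, gamma and delta classes (13) or the GABA-B receptor (2). They are 39 of 55401 identifiers in the tables and of 21859 protein-coding ones, and the rule reads the symbol and the gene type alone. The 13 libraries were made from a frozen brain hemisphere of male C57BL/6J wild-type mice, put on their diets at an age of 6 to 8 weeks according to the labels. The paper gives an older age. The 5 CTL libraries are from mice kept on normal chow for 6 weeks. The 4 CPZ libraries are from mice fed for 4 weeks on chow with 0.3% cuprizone, a copper chelator that injures oligodendrocytes, and collected at week 4. The 4 RCV libraries are from mice given that cuprizone chow for 4 weeks, returned to normal chow for another 2, and collected at week 6 like CTL. Strain and sex were the same throughout and cuprizone was the only agent. CPZ was collected 2 weeks before the other groups, which cannot be told apart from the diet. Titles of the RCV samples start with "Veh", whereas the treatment given for them is recovery. The study counts as many samples as there are libraries, but its methods give fewer mice per group, so whether each library is a separate mouse is not settled, and p values measure only the spread between these libraries, which may in part be technical.

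Glutamate and GABA carry most of the fast excitation and inhibition in the brain. AMPA, NMDA and kainate receptors are tetrameric cation channels opened by glutamate, and GABA-A receptors are pentameric chloride channels opened by GABA, so that the mix of subunits sets a channel's kinetics, ion selectivity, drug sensitivity and place at or outside the synapse. Metabotropic glutamate receptors and GABA-B receptors act through G proteins. Most of these genes are transcribed mainly in neurons, each with its own regional pattern, while a few are also transcribed in astrocytes or in cells of the oligodendrocyte lineage.

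The libraries held between 4605100 and 8197289 estimated counts, and the 39 genes together took between 0.584% and 0.714% of them. A total of 36 subunit genes passed the filter on low counts and were tested beside all other genes, 14985 in all. Marker genes of microglia were higher in every CPZ library, with a summed level between 1550 and 3364 TPM, a value scaled to transcript length and depth, against 413.5 to 490.9 in CTL and 656.4 to 932.4 in RCV, and each of the 10 passed the test against CTL (adjusted p below 0.05). Marker genes of mature oligodendrocytes summed to between 969.9 and 1490 TPM in CPZ, 2186 to 4023 in CTL and 2890 to 4775 in RCV, and each of the 10 was called lower against CTL. In tissue RNA, fewer cells of a type and less RNA per cell cannot be told apart. Markers of brain regions differed strongly between libraries of the same group. The 9 striatal markers summed to 171.8 TPM in RCV replicate 3 and 2269 TPM in CTL replicate 2.

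The hemisphere RNA carried almost no signal of the subunit that marks the cerebellum. Gabra6, whose alpha6 subunit is made almost exclusively by cerebellar granule cells, had 0 counts in 11 of the 13 libraries and 5 counts over all of them. In a single library a count of 0 allows up to 3 counts, which is 0.366 to 0.651 CPM (counts scaled to a fixed library size) at these depths and covers counting error only. Its neighbour Gabrb2, which encodes a beta subunit of the same receptor family, was well detected in every library. In the GRCm38 assembly Gabra6 lies on chromosome 11 at 42306437 to 42321072 (minus strand) and Gabrb2 at 42419757 to 42629028 (plus strand). The mean level over the 13 libraries was 0.049 TPM for Gabra6 and 86 TPM for Gabrb2. Of the 10 cerebellar marker genes, 4 stayed below 2 TPM in every library, among them the granule cell genes Cbln3 and Fat2 and the Purkinje cell gene Pcp2, which was at 0 in 11 of 13. The labels name a brain hemisphere and the paper a coronal level of the brain, and the defining markers of the cerebellum were thus at or near 0. The other 6 markers on the list are also transcribed elsewhere in the forebrain, and the list summed to between 309.2 and 477.2 TPM.

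Promoters are shown for 4 of the genes. Gabra6 and Gabrb2 are the silent and a transcribed neighbour of the chromosome 11 cluster. Grin1 and Gabrg1 are from the 3 subunit genes whose scaled counts did not overlap between CPZ and CTL, beside 13.1% of all genes without overlap. Each line holds the 250 bases before the first transcription start that RefSeq lists for the gene, in GRCm38.p6 and 5′ to 3′ along the strand of the gene. For Gabrb2 that start differs from GENCODE, which begins the gene at 42419757, so the window printed lies inside the gene as positioned above. None of these windows shares a base with an annotated exon. Capitals mark the CG dinucleotides, which read the same on both strands.
Gabra6, chr11:42321073-42321322, minus strand: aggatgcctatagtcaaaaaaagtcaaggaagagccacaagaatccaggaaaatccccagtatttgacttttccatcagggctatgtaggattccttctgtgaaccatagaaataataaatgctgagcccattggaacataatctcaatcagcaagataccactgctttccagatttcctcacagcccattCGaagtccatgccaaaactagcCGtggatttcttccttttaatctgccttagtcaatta
Gabrb2, chr11:42420190-42420439, plus strand: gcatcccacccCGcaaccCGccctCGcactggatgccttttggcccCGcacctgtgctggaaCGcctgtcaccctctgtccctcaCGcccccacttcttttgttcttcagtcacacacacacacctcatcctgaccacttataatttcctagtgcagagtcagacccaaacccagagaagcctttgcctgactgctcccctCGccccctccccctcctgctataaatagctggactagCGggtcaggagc
Grin1, chr2:25319188-25319437, minus strand: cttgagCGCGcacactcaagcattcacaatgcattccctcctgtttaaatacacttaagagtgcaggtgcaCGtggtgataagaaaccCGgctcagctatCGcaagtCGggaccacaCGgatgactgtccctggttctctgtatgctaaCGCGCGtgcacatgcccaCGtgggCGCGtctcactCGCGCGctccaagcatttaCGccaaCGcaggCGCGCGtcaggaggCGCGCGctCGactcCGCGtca
Gabrg1, chr5:70842618-70842867, minus strand: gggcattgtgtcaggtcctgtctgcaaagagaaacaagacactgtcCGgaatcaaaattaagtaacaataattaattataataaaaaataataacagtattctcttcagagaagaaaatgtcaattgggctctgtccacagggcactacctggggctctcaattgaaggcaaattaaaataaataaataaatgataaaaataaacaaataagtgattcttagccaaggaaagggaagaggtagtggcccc
The Gabra6 window held 2 CG dinucleotides, a number matched or undercut by 29.0% of the 32851 promoter windows in the RefSeq table. The window printed for Gabrb2 held 8, and 43.0% of all windows held as many or more. Windows of later Gabrb2 starts in that table are not printed and held 8 and 4. The Grin1 window held 27, and 8.56% of all windows held as many or more. The Gabrg1 window held 1, and 18.8% of all windows held that number or fewer. The windows of Grm7, the other gene without overlap between CPZ and CTL, are not printed and held 8 and 9. Over the 33 windows of 26 subunit genes in the table, the median was 9 CG dinucleotides and the range 0 to 42, beside a median of 6 over all windows. These are descriptions of the reference sequence, and no measurement of binding or methylation was made here.

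The other 2 genes left out of the tests were Grm6 and Grin3b. Grm6 encodes the metabotropic receptor of retinal ON bipolar cells and gave 1 count in all, in RCV replicate 4. Grin3b encodes the glycine-binding GluN3B subunit, best known from motor neurons, and gave 32 counts over 11 libraries with between 0 and 0.76 TPM per library. The exons of Grin3b share 32.1% of their bases with Tmem259 on the opposite strand, which held 371 to 776 counts per library. Whether the counting used strand is not given in the sources used here, so reads of the shared bases cannot be assigned with certainty.

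The levels of the 36 tested genes spanned from 8.34 TPM (Grm8) to 501.9 TPM (Gabbr1) as the mean over all libraries, as the plot of levels by family shows. The TPM scale was used for every comparison of levels between genes. Gabbr1, which encodes the agonist-binding subunit of the obligate GABA-B heterodimer, stood at 533.6 ± 38.5 TPM in CTL (SD, n = 5), 459.7 ± 29.0 in CPZ (SD, n = 4) and 504.6 ± 46.1 in RCV (SD, n = 4). Its partner Gabbr2, which couples the dimer to G proteins, stood at 144.4 TPM over all libraries. Grin1, the GluN1 subunit present in every NMDA receptor, averaged 265.8 TPM over all libraries, Gria2 232.4 TPM and Gria1 182 TPM.

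**Figure D1:**
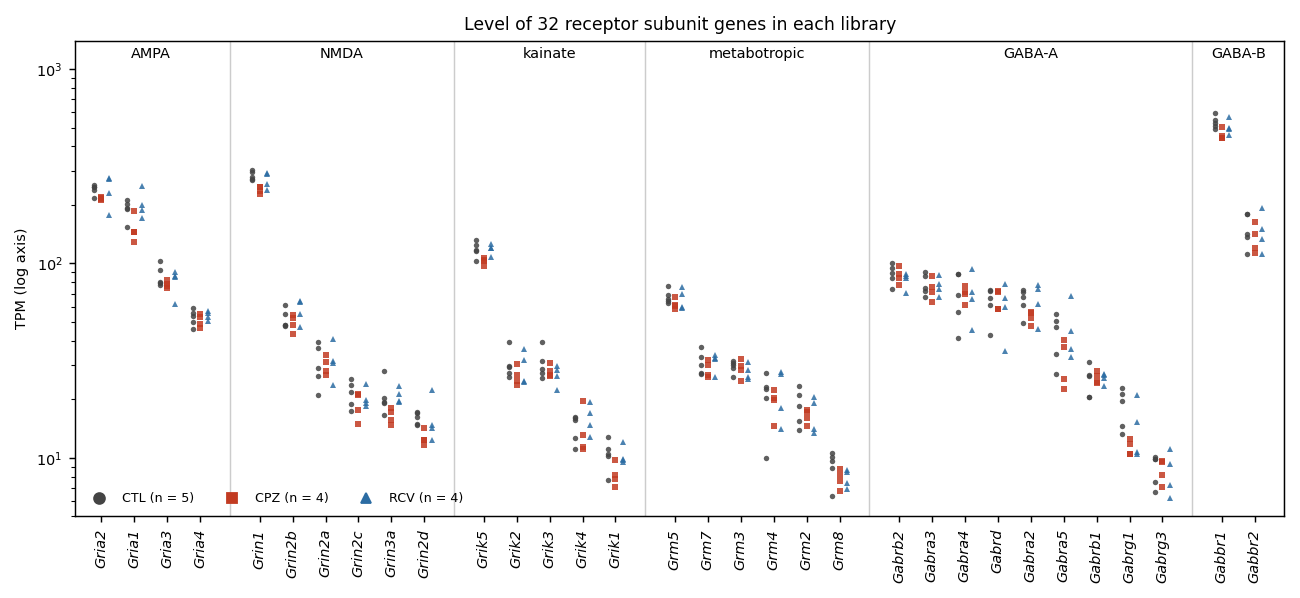
Level of 32 tested receptor subunit genes in TPM on a log axis, 1 point per library, with genes grouped by receptor family and ordered by mean level. Within the AMPA family the means run from 232.4 TPM for Gria2 to 52.6 TPM for Gria4, and for most genes the points of the 3 groups intermingle.

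Among the AMPA receptor genes, Gria2, whose edited GluA2 subunit keeps the channel impermeable to calcium, and Gria1, the subunit of activity-dependent insertion at synapses, were followed by Gria3 (82.2 TPM over all libraries) and Gria4 (52.6). Of the NMDA receptor genes, Grin2b, the GluN2B subunit that predominates in early life, averaged 52.9 TPM and Grin2a, the GluN2A subunit of mature synapses, 30.7 TPM. Grin2c, found in thalamus, cerebellum and astrocytes, averaged 20.3 TPM, Grin3a, whose GluN3A subunit lowers calcium flux, 19.4 TPM, and Grin2d, found in interneurons and deep brain nuclei, 14.9 TPM. The kainate family was led by Grik5, the high-affinity GluK5 subunit that forms channels only with GluK1 to GluK3, at 113.7 TPM. Those 3 partners, encoded by Grik1, Grik2 and Grik3, averaged 9.7, 28.9 and 28.5 TPM, and Grik4, the other high-affinity subunit, 14.7 TPM. The highest metabotropic glutamate receptor was Grm5 at 65.3 TPM, a group I receptor, coupled to phospholipase C. The receptors that inhibit adenylyl cyclase followed, with group II at 28.7 TPM for Grm3, which astrocytes also transcribe, and 17.3 TPM for Grm2. Group III stood at 30.3 TPM for Grm7, a presynaptic receptor of low affinity, 20.6 for Grm4 and 8.34 for Grm8.

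The GABA-A genes together were the most abundant of the families, at 961.8 ± 78.4 TPM in CTL (SD, n = 5), 887.9 ± 31.0 in CPZ (SD, n = 4) and 926.9 ± 85.3 in RCV (SD, n = 4). Gabrb2 averaged 86 TPM over all libraries and Gabra3, an alpha subunit, 76.5 TPM. Subunits known from extrasynaptic receptors, Gabra4 (69.1 TPM), Gabrd (62.7) and Gabra5 (40.1), were lower, as were Gabra2 (61.0) and Gabrb1 (25.5). The gamma subunit genes Gabrg1 and Gabrg3 were scarce, at 14.9 and 8.63 TPM.

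**Figure D2:**
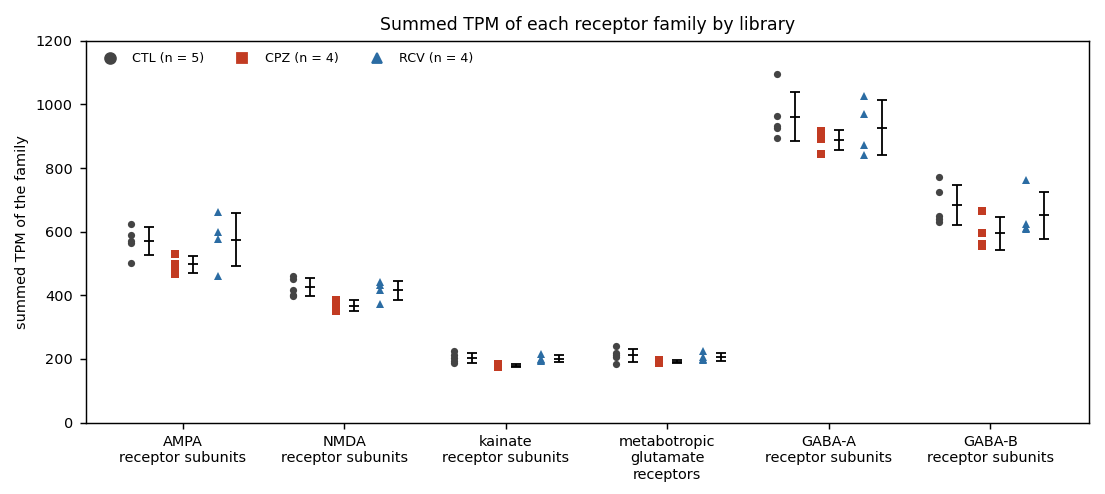
Summed TPM of the genes of each receptor family, 1 point per library, with the mean and SD of each group drawn beside the points. On this scale the NMDA receptor sum lies at 349.9 to 384.8 TPM in CPZ and 398.7 to 460.4 TPM in CTL without overlap. The kainate receptor sum lies at 174.6 to 183.4 and 186.7 to 224.9 TPM, a narrow margin.

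Summed by family, levels were lower on average in CPZ than in CTL for all 6 families. The NMDA receptor genes summed to 425 ± 28.4 TPM in CTL (SD, n = 5), 367.5 ± 16.6 in CPZ (SD, n = 4) and 415.8 ± 29.9 in RCV (SD, n = 4). The kainate receptor genes summed to 204 ± 15.5, 179 ± 3.60 and 201.1 ± 10.7 TPM in the same groups. In the TPM sums of these 2 families the CPZ libraries lay below all CTL libraries, while RCV libraries overlapped with CTL. For the kainate receptor genes the margin was narrow, 183.4 against 186.7 TPM. The separation is bound to the TPM scale, since sums of the TMM-scaled counts overlapped between CPZ and CTL in both families. Each sum is made up in large part of a single gene. Grin1 averaged 283.9 TPM in CTL and 239.9 in CPZ, and Grik5 118.4 and 102.7. Grin2b and Grin2a, next in level to Grin1, averaged 52.0 and 30.6 TPM in CTL and 49.6 and 30.0 in CPZ. The AMPA receptor genes summed to 570.1 ± 44.7 TPM in CTL, 497 ± 26.6 in CPZ and 575.1 ± 84.1 in RCV, and the groups overlapped. No test was run on these sums, because TPM within a library share a fixed total and the summed genes were chosen with results of these data known.

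Next, CPZ was compared with CTL to see how 4 weeks of cuprizone affected the transcripts of each subunit. No subunit gene reached an adjusted p below 0.05 in edgeR's quasi-likelihood test, where 10.2% of all tested genes did. The smallest adjusted p was 0.0628. At an unadjusted p below 0.05 there were 8 of 36 subunit genes, all with lower values in CPZ, beside 22.1% of all genes. The share of small p values among the subunit genes was therefore close to that of the transcriptome. What set them beside the background was the sign, since 34 of 36 had a log2 fold change below 0 against 54.6% of all genes. The fitted changes were small, with a median of -0.125 and a range from -0.59 (Gabrg1) to 0.07 (Gabrd), beside a median of -0.02 over all genes. The scaled counts of 3 subunit genes did not overlap between the groups, all lower in CPZ, beside 13.1% of all genes without overlap. For 31 of the 36 genes, the 95% interval of the fold change lay within 1.5-fold in either direction. DESeq2 called 3 of the subunit genes lower in CPZ (Gabrg1, Grik5 and Grin1), beside 11.0% of all genes, and limma-voom called none, beside 10.3%.

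**Figure D3:**
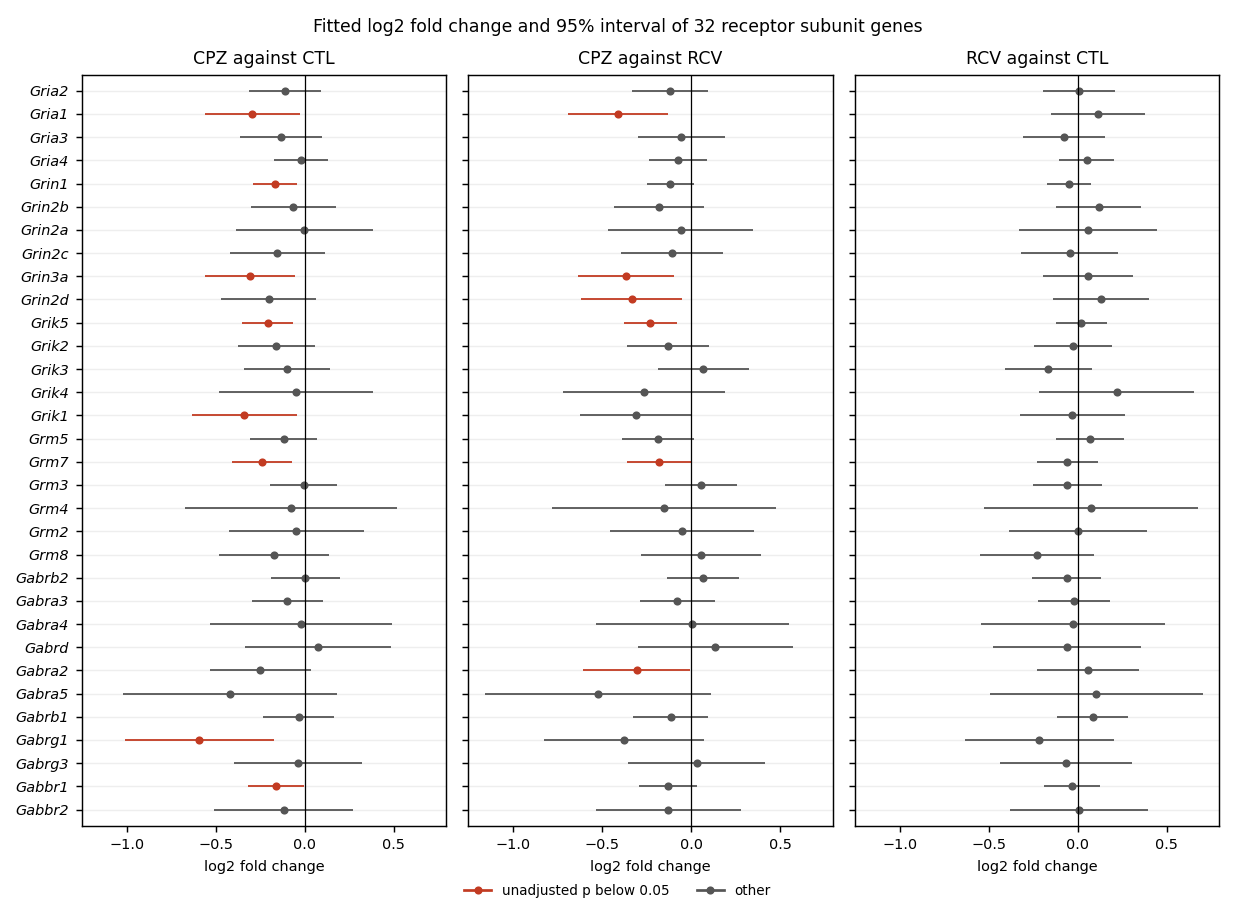
Fitted log2 fold change (points) and 95% interval (bars) of 32 tested receptor subunit genes in each comparison, from edgeR, with genes at an unadjusted p below 0.05 in red. In CPZ against CTL, 30 of the 32 points lie below 0, and in RCV against CTL 16 do.

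Of the 12 GABA-A genes tested, 10 had a log2 fold change below 0, with a family median of -0.07. The family medians of the others were -0.12 for AMPA receptors (4 of 4 below 0), -0.16 for NMDA receptors (6 of 6), -0.16 for kainate receptors (5 of 5), -0.12 for metabotropic glutamate receptors (7 of 7) and -0.14 for GABA-B receptors (2 of 2). The pattern of signs thus ran across the families. General neuron markers had the same sign, since all 10 had a log2 fold change below 0 with a median of -0.13, and 1 of them, the neuronal enolase gene Eno2, was called lower (log2 fold change -0.20 ± 0.05, SE, adjusted p = 0.015). They summed to between 5967 and 6790 TPM in CTL, 5765 and 6130 in CPZ and 5681 and 6510 in RCV, with none of the 10 near 0. Markers of astrocytes summed to between 1240 and 1392 TPM in CTL, 1785 and 2119 in CPZ and 1555 and 1754 in RCV, and 5 of 9 were called higher in CPZ. The part of these cell markers in the values of the receptor genes was not tested.

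CPZ was then compared with RCV, which asks how the same genes stood at the end of feeding against 2 weeks after it. This comparison shares the CPZ libraries with the one before, so the values of both are given side by side and not as separate evidence. Again no subunit gene had an adjusted p below 0.05 with edgeR, against 7.01% of all genes, and the smallest adjusted p was 0.0669. The unadjusted p was below 0.05 for 6 of 36, all with lower values in CPZ, beside 19.1% of all genes. A log2 fold change below 0 was seen in 29 of 36 against 51.5% of all genes, with a median of -0.123 beside -0.0066. The groups did not overlap for 2 subunit genes, both lower in CPZ, beside 13.2% of all genes. DESeq2 called Grik5 and Gria1 lower in CPZ, beside 7.98% of all genes called, and limma-voom called none, beside 6.69%. The 95% interval lay within 1.5-fold for 26 of 36.

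RCV against CTL gave no subunit gene with an adjusted p below 0.05 by edgeR, DESeq2 or limma-voom, beside 0.374% of all genes in edgeR, 0.874% in DESeq2 and 0.107% in limma-voom. At an unadjusted p below 0.05 there were 0 of 36 in edgeR, beside 6.20% of all genes. The signs were even, with 18 of 36 log2 fold changes below 0 beside 51.4% of all genes, and a median of -0.0011 beside -0.0044 over all genes. On the log2 TPM scale, 24 of the 36 differences were below 0, with a median of -0.03 beside -0.02 over all genes. The share of all genes below 0 on that scale is not given here, so this count has no background beside it. No subunit gene was without overlap between these groups, beside 2.90% of all genes. The fitted changes ran from -0.23 (Grm8) to 0.22 (Grik4), and for 32 of 36 genes the 95% interval lay within 1.5-fold. For Gabrg1, Grm4, Gabra5 and Grik4 the interval reached past 1.5-fold, so that a change of that size is not excluded.

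The 8 genes with the smallest unadjusted p in any comparison were Grik5, Gria1, Grm7, Gabrg1, Grin3a, Grin1, Grin2d and Grik1, and their values per library are plotted as CPM after TMM scaling. Grik5 stood at 193, 198, 168, 211 and 183 CPM in CTL replicates 1 to 5. In CPZ replicates 1 to 4 it stood at 167, 161, 159 and 173 CPM, and in RCV replicates 1 to 4 at 191, 176, 201 and 205 CPM. All CPZ libraries were below all RCV libraries, while CTL replicate 3 fell among the CPZ values. The log2 fold change was -0.21 ± 0.07 (SE) in CPZ against CTL, with an adjusted p of 0.0628, and -0.23 ± 0.07 in CPZ against RCV, with an adjusted p of 0.0669. DESeq2 placed it below the threshold in both comparisons, with adjusted p values of 0.0429 and 0.041. Grik1, which encodes the GluK1 partner of this subunit, stood at 12.6, 17.4, 15.8, 20.5 and 15.2 CPM in CTL, at 13.3, 12.2, 14.8 and 11.4 CPM in CPZ and at 14.8, 15.1, 14.8 and 19.5 CPM in RCV. Its groups overlapped, and the log2 fold change of -0.34 ± 0.14 (SE) between CPZ and CTL had an adjusted p of 0.153.

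**Figure D4:**
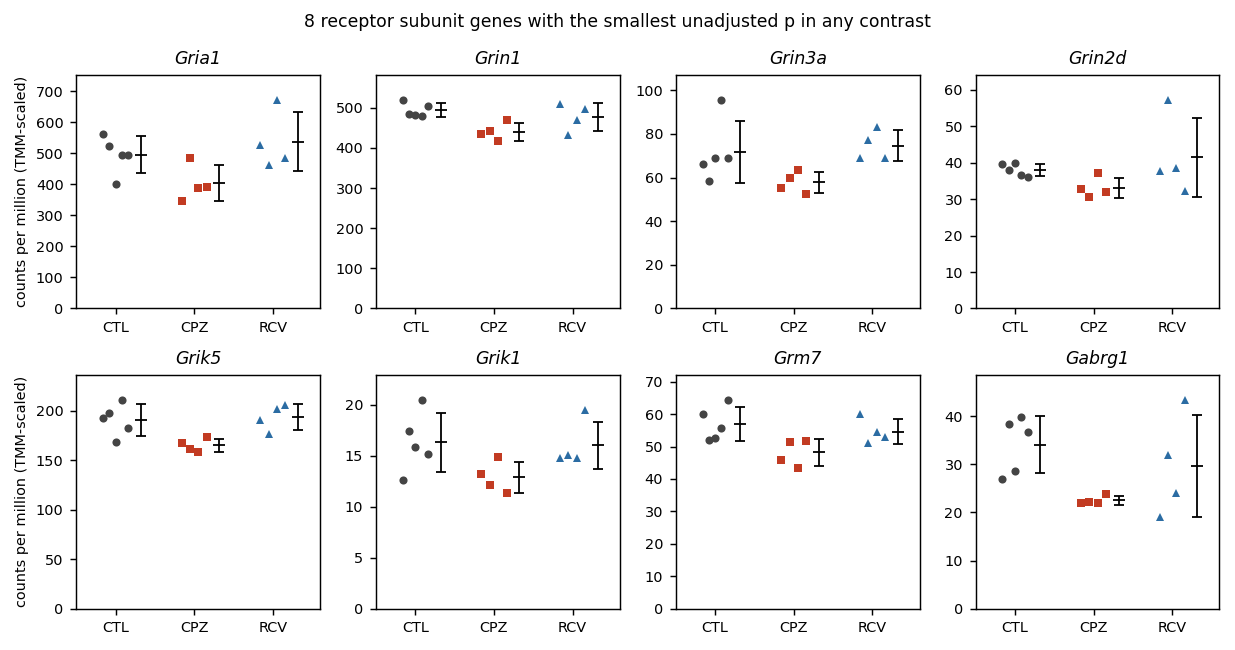
TMM-scaled CPM of 8 receptor subunit genes in each library, with axes from 0 and the mean and SD of each group beside the points. The CPZ points of Grin1 (416 to 470) and Gabrg1 (21.9 to 23.9) lie below all CTL points, while those of Gria1 overlap with CTL.

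Grin1 showed the least spread of all tested subunit genes, with a within-group SD of 0.08 on the log2-CPM scale. It stood at 520, 485, 482, 480 and 504 CPM in CTL, at 434, 441, 416 and 470 CPM in CPZ and at 510, 433, 469 and 498 CPM in RCV. All CPZ libraries were below all CTL libraries, and RCV libraries overlapped with both groups. Its log2 fold change between CPZ and CTL was -0.17 ± 0.06 (SE) with an adjusted p of 0.0887, and it was called by DESeq2 (adjusted p = 0.0413) and by limma on log2(TPM + 1) (adjusted p = 0.0483). The exons of Grin1 share 13.5% of their bases with the antisense gene Grin1os, which held no more than 11 counts in any library against 2297 or more for Grin1. Grin3a stood at 66.2, 58.2, 69, 95.7 and 69.1 CPM in CTL, at 55.3, 59.9, 63.5 and 52.6 CPM in CPZ and at 68.9, 77.1, 83.3 and 69 CPM in RCV. Here CPZ libraries were below all RCV libraries and only CTL replicate 2 was as low. The log2 fold change was -0.31 ± 0.12 (SE) against CTL, with an adjusted p of 0.127, and -0.37 ± 0.13 against RCV, with an adjusted p of 0.105. Without CTL replicate 4, the highest library, the value against CTL was -0.18 with an adjusted p of 0.225. Grin2d stood at 39.6, 38.1, 40, 36.5 and 36.1 CPM in CTL, at 32.7, 30.6, 37.2 and 31.9 CPM in CPZ and at 37.7, 57.4, 38.7 and 32.3 CPM in RCV. The log2 fold change of -0.33 ± 0.13 (SE) between CPZ and RCV had an adjusted p of 0.174, and RCV replicate 2 was the highest of all libraries. Without that library the value was -0.14 with an adjusted p of 0.428. Exons of Grin2d share 9.66% of their bases with the antisense gene Gm45441, which held 5 to 27 counts.

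Gria1 stood at 563, 524, 403, 495 and 493 CPM in CTL, at 347, 486, 389 and 393 CPM in CPZ and at 527, 461, 673 and 486 CPM in RCV. The ranges overlapped, with CPZ replicate 2 and CTL replicate 3 among the values of the other group. The log2 fold change was -0.29 ± 0.12 (SE) against CTL, with an adjusted p of 0.174, and -0.41 ± 0.13 against RCV, with an adjusted p of 0.0794 in edgeR and 0.0347 in DESeq2. With scores of striatal, thalamic and hippocampal markers as covariates, an alternative chosen after seeing the data, the value against RCV was -0.20 with an adjusted p of 0.294. RCV replicate 3, the highest in Gria1, was also the library with the lowest striatal and the highest hippocampal markers. Gria2, the most abundant gene of the family, stood at 564, 549, 472, 506 and 542 CPM in CTL, at 474, 483, 485 and 509 CPM in CPZ and at 513, 405, 608 and 591 CPM in RCV. Its log2 fold change between CPZ and CTL was -0.11 ± 0.10 (SE) with an adjusted p of 0.579, and the groups overlapped.

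Grm7 stood at 60.1, 52.1, 52.6, 55.8 and 64.4 CPM in CTL, at 46, 51.5, 43.4 and 51.8 CPM in CPZ and at 60, 51.2, 54.5 and 52.9 CPM in RCV. The CPZ libraries lay below all CTL libraries by a narrow margin, 51.8 against 52.1 CPM, and on the TPM scale the groups overlapped, at 26.1 to 32 TPM in CPZ and 27.1 to 37.3 in CTL. The log2 fold change was -0.24 ± 0.08 (SE) between CPZ and CTL with an adjusted p of 0.0725, and limma on log2(TPM + 1) gave -0.10 with an adjusted p of 0.716. Grm5, the most abundant metabotropic glutamate receptor, stood at 175, 194, 151, 164 and 184 CPM in CTL, at 162, 150.1, 159 and 168 CPM in CPZ and at 171, 153, 191 and 213 CPM in RCV. The groups overlapped, and the log2 fold change between CPZ and CTL was -0.12 ± 0.09 (SE, adjusted p = 0.507).

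Gabrg1, a GABA-A gamma subunit of restricted distribution that glial cells also transcribe, had the largest fitted change of the subunit genes between CPZ and CTL. It stood at 26.9, 38.4, 28.6, 39.8 and 36.7 CPM in CTL, at 22, 22.2, 21.9 and 23.9 CPM in CPZ and at 19.1, 31.9, 24.1 and 43.4 CPM in RCV. The 4 CPZ libraries were close together and below all CTL libraries, whereas the RCV libraries spread from below the CPZ values to above the CTL values. The log2 fold change between CPZ and CTL was -0.59 ± 0.19 (SE) with an adjusted p of 0.074, and its 95% interval ran from -1.01 to -0.17. DESeq2 gave -0.59 with an adjusted p of 0.029. With the regional marker scores as covariates in the edgeR fit, chosen after seeing the data, the value was -0.54 with an adjusted p of 0.0219. Gabrg1 was called in 6 of 24 alternative fits, whose adjusted p values ran from 0.00562 to 0.21. Its direct neighbour on chromosome 5, Gabra2, had a log2 fold change of -0.25 ± 0.13 (SE, adjusted p = 0.305) in the same comparison. The other genes of that cluster, Gabra4 and Gabrb1, whose first exons overlap head to head by 46 bases, had -0.02 ± 0.23 and -0.03 ± 0.09.

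Gabbr1 stood at 885, 846, 833, 800.1 and 924 CPM in CTL, at 720, 851, 729 and 765 CPM in CPZ and at 965, 821, 763 and 805 CPM in RCV. CPZ replicate 2 lay within the CTL range, and the log2 fold change of -0.16 ± 0.07 (SE) had an adjusted p of 0.21.

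Within-library ratios of 2 subunits do not depend on library scaling, and 4 pairs were compared whose members replace each other or pair in a receptor, of which 3 are described. Grin2a to Grin2b, a ratio that rises as synapses mature, stood at 0.582 ± 0.093 in CTL (SD, n = 5), 0.606 ± 0.049 in CPZ (SD, n = 4) and 0.552 ± 0.070 in RCV (SD, n = 4). The ratio of Gria1 to Gria2 was 0.789 ± 0.050, 0.701 ± 0.111 and 0.859 ± 0.120 in the same groups. That of Gabbr1 to Gabbr2 was 3.65 ± 0.629, 3.46 ± 0.382 and 3.54 ± 0.686. In 12 exact two-sided permutation tests the smallest p was 0.0571, for Gria1 to Gria2 between CPZ and RCV, where the mean log2 ratio differed by -0.29 (exact permutation test, adjusted p = 0.571 over the 12). With exact permutation tests the smallest p the design allows is 0.00794 for 4 against 5 libraries and 0.0286 for 4 against 4. After adjustment over the 12 tests, a single ratio at these values stays above 0.05. The tests therefore could not decide whether a ratio changed on its own.

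For several subunits the libraries of one group differed more than the groups did. On the log2-CPM scale, the SD within groups ran from 0.08 (Grin1) to 0.46 (Grm4) with a median of 0.19 over the 36 tested genes, and exceeded 0.3 for 8 of them. Grm4, Gabra4, Gabra5 and Grin2a had the widest ranges within CTL. Grm4 stood at 45.4, 46.1, 58.1, 21.3 and 48.4 CPM in CTL, at 42.9, 47.8, 43.2 and 32.2 CPM in CPZ and at 58.8, 58, 29.1 and 37.3 CPM in RCV. Gabra4 stood at 139, 92.9, 107, 62.4 and 147 CPM in CTL, at 99.7, 119, 109 and 104 CPM in CPZ and at 146, 104, 76.0 and 103 CPM in RCV. CTL replicate 4 was the lowest library in both genes, and its thalamic markers, at 192.7 TPM in sum, were the lowest of the CTL libraries. Over all libraries these markers were lowest in RCV replicate 4, at 133.5 TPM, where Grm4 stood at 37.3 and Gabra4 at 103 CPM. In RCV replicate 3 they summed to 196.2 TPM, with Grm4 at 29.1 and Gabra4 at 76.0 CPM. Gabra5, the alpha5 subunit that is abundant in hippocampus, stood at 66.5, 32, 40.7, 55 and 58.7 CPM in CTL, at 26.9, 47.4, 30.9 and 45.5 CPM in CPZ and at 54.7, 38.4, 81.8 and 42.9 CPM in RCV. Its highest value came from RCV replicate 3. Grin2a stood at 275, 184, 201, 144 and 244 CPM in CTL, at 194, 237, 185 and 221 CPM in CPZ and at 224, 168, 269 and 211 CPM in RCV. The lowest adjusted p of these 4 genes in any comparison was 0.369, for Gabra5 between CPZ and RCV.

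The levels of the 36 genes were set against the scores of striatal, thalamic and hippocampal markers over the 13 libraries, and 108 relations were computed. A score is the mean log2-CPM of the markers of a region, and no subunit gene is among them. After adjustment over the 108, 6 relations had an adjusted p below 0.05 both for Pearson's r and for Spearman's rho in permutation tests, and 5 of them are described. The relations of all other genes to the scores were not computed, so this count has no background beside it. Gabra5 ran against the striatal score (r = -0.839, permutation p = 0.00029, adjusted p = 0.0283; rho = -0.841, permutation p = 0.00059, adjusted p = 0.0302). Grik4, the GluK4 subunit known from hippocampal field CA3, also ran against the striatal score (r = -0.761, permutation p = 0.00238, adjusted p = 0.0367; rho = -0.808, permutation p = 0.0013, adjusted p = 0.0302). Gabra4, which forms extrasynaptic receptors with the delta subunit in thalamus, rose with the thalamic score (r = 0.781, permutation p = 0.0017, adjusted p = 0.0367; rho = 0.813, permutation p = 0.00118, adjusted p = 0.0302).

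With the hippocampal score, Gabbr2 rose (r = 0.802, permutation p = 0.00105, adjusted p = 0.0283; rho = 0.791, permutation p = 0.00172, adjusted p = 0.0302). Gabrg3 ran the other way (r = -0.816, permutation p = 0.00066, adjusted p = 0.0283; rho = -0.802, permutation p = 0.00161, adjusted p = 0.0302). Without the 2 libraries farthest from the median score, r was -0.721 for Gabra5, -0.604 for Grik4, 0.851 for Gabra4, 0.864 for Gabbr2 and -0.702 for Gabrg3. On deviations from the group means, r was -0.891, -0.766, 0.786, 0.814 and -0.825 in the same order. Groups of 4 or 5 libraries are too small to give the relation in each group. The 3 scores come from the same libraries and are not independent of each other.

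**Figure D5:**
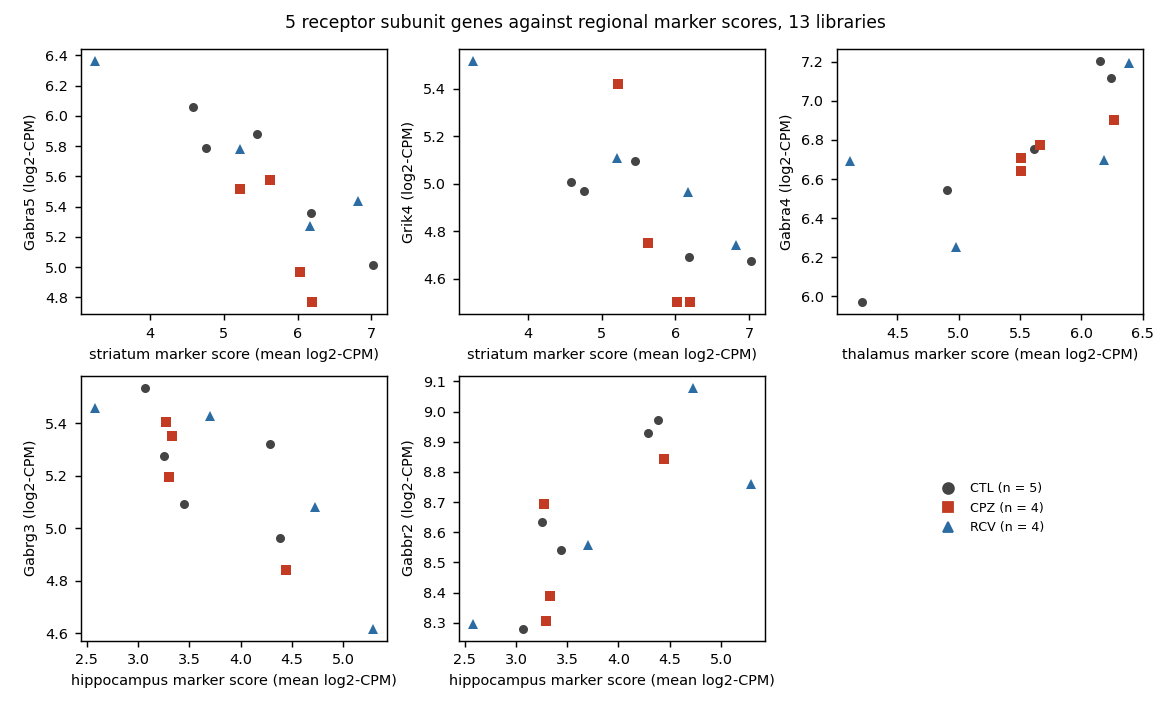
Log2-CPM of 5 receptor subunit genes against the marker score of a brain region, 1 point per library and 13 per panel, with groups by color and symbol. Over the 13 libraries the points run upward for Gabra4 and Gabbr2 and downward for Gabra5, Grik4 and Gabrg3, and no slope was computed within a group.

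The proteins that anchor these receptors and the machinery of their transmitters were read out from the same fit, as lists of genes drawn up from general knowledge. Of 28 genes for glutamate receptor auxiliary and scaffold proteins, 1 was called, lower in CPZ than in CTL, and 24 had a log2 fold change below 0, with a list median of -0.14 where all genes had -0.02 and 10.2% of them were called. It was Dlg4, which encodes the postsynaptic scaffold PSD-95, at 426.3 ± 23.9 TPM in CTL and 358.9 ± 11.7 TPM in CPZ (log2 fold change -0.21 ± 0.06, SE, adjusted p = 0.0411). Of 11 genes for GABA receptor scaffold and auxiliary proteins, 2 had higher and 3 lower calls between CPZ and CTL, with a list median of -0.09. Those called lower encode proteins of the inhibitory postsynapse. They were Nlgn2, the adhesion molecule neuroligin-2, at -0.26 ± 0.06 (log2 fold change, SE, adjusted p = 0.0107), Gphn, the scaffold gephyrin, at -0.22 ± 0.06 (adjusted p = 0.0376), and Lhfpl4, which links GABA-A receptors to neuroligin-2, at -0.24 ± 0.07 (adjusted p = 0.0442). Lhfpl4 was on the list like the others, but the rule names no more than 4 genes, so its naming followed its values. Those called higher were Kctd12, an auxiliary subunit of GABA-B receptors, at 27.8 ± 3.82 TPM in CTL and 44.4 ± 7.17 TPM in CPZ (log2 fold change 0.73 ± 0.11, SE, adjusted p = 0.000398), and Gabarap, a protein of receptor trafficking and autophagy (0.20 ± 0.05, adjusted p = 0.0182). Between CPZ and RCV, Gabarap and Kctd12 were again called higher in CPZ (0.31 and 0.49) and Gphn lower (-0.27, adjusted p = 0.024).

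Of the 10 genes of glutamate synthesis, packaging and uptake, Slc1a3, the astrocytic transporter GLAST, was called higher in CPZ than in CTL (log2 fold change 0.36 ± 0.08, SE, adjusted p = 0.00508). Slc1a3 is also on the list of astrocyte markers given above, so its call is counted there too and is not a separate observation. Glul, the glutamine synthetase of astrocytes and oligodendrocytes, was called lower, at 1020 ± 52.7 TPM in CTL and 834.2 ± 62.2 TPM in CPZ (log2 fold change -0.24 ± 0.07, SE, adjusted p = 0.0292), and also lower than in RCV (-0.24 ± 0.07, adjusted p = 0.0474). None of the 7 genes of GABA synthesis, packaging, uptake and breakdown was called in any comparison, and their median log2 fold change between CPZ and CTL was -0.14. Slc12a5, which encodes the chloride exporter KCC2 that keeps GABA-A currents inhibitory, stood at 322.2 ± 22.2 TPM in CTL, 272.4 ± 11.2 in CPZ and 309.4 ± 22.9 in RCV. It was called lower in CPZ than in CTL (log2 fold change -0.24 ± 0.06, SE, adjusted p = 0.0109) and than in RCV (-0.21 ± 0.06, adjusted p = 0.0437). RCV against CTL gave no call in any of these 5 lists. Whether these lists differ from the receptor genes was not tested.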

How the data were processed

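RNA-seq was measured in 13 libraries of mouse brain hemisphere, made by the authors with the Kapa mRNA HyperPrep Kit. The submitters' processing notes name STAR, RSEM and mm10, and the paper names the RNASequest pipeline. Tool versions and strandedness: not given in the sources used here. The authors deposited estimated counts per gene, not scaled to depth, and TPM values, scaled to transcript length and depth. Estimated counts were rounded to whole numbers. Libraries held 4605100 to 8197289 counts, which limits precision for genes of few counts. Groups came from the sample labels.

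Low-count genes were removed by filterByExpr (edgeR 4.0.16), and the others scaled by TMM and fitted with robust quasi-likelihood in one model of 3 group means without covariates (R 4.3.3). Adjustment followed Benjamini and Hochberg over 14985 genes, with a threshold of 0.05. Log2-CPM used a prior count of 2. Ratios of TPM were tested by exact permutation (two-sided) and relations by 100000 permutations (scipy 1.17.1). DESeq2 1.42.0, limma 3.58.1 and the other alternatives are described in the closing section. Positions are from GENCODE M21, where all 39 genes matched by identifier and version, and promoters from RefSeq. Of the 39 genes, 17 share exon bases with another gene, and 3 share over 10% of them.

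The subunit genes, the gene lists and the rules were chosen with earlier results of these data known. Values in every library are given for the 8 genes with the smallest unadjusted p in any comparison, the gene of highest mean TPM in 5 of the 6 families and the 4 with the widest range of log2-CPM in CTL, and list genes are named where called. Replicate numbers did not pair the libraries, as the closing section describes. Of the 36 tested genes, 4 are not reported here by name, and they remain in the counts, medians and family sums. Nuclei and spatial data of the study were not analysed here.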

Additional observations from a re-analysis of the deposited data

Results flagged for a closer look

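A total of 3 values stood apart from the other libraries of their group by Dixon's criterion. In all, 126 groups of TPM values, of single subunit genes and of receptor families, were examined, and chance alone sets a value apart in about 1 in 20 groups. Grik1 stood at 12.1 TPM in RCV replicate 4, where the next RCV library held 9.81 TPM. Grik2 stood at 39.4 TPM in CTL replicate 2, where the next CTL library held 29.8 TPM. The GABA-B receptor genes summed to 761.2 TPM in RCV replicate 1, where the next RCV library held 625.1 TPM. CTL replicate 2 and RCV replicate 4 were the libraries with the highest striatal markers, at 2269 and 2030 TPM in sum, and RCV replicate 1 had the highest thalamic markers, at 547.9 TPM. Their part in these values was not tested.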

How the results depend on the processing

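The count of subunit genes called between CPZ and CTL was 0 in the fit reported. It was 3 with the DESeq2 Wald test, and 1 each with limma on log2(TPM + 1) or log2(TPM + 0.1) (Grin1), with only the 2 groups in the fit, with the replicate block and with regional scores as covariates, chosen after seeing the data (Gabrg1, adjusted p = 0.00562, 0.0352 and 0.0219). Between CPZ and RCV it was 2 with DESeq2 and 1 with only the 2 groups (Grin3a, adjusted p = 0.0248). Of all genes, the same fits called between CPZ and CTL 11.0% (DESeq2), 6.41% and 6.16% (limma), 10.2% (2 groups), 7.82% (block) and 11.4% (regional scores), and between CPZ and RCV 7.98% (DESeq2) and 6.60% (2 groups). With regional scores, Gria1 between CPZ and RCV was -0.20 (adjusted p = 0.294) and Gabra2 -0.10 (0.768), where the fit reported gave -0.41 and -0.31. Leaving out each library in turn gave 0 to 1 genes between CPZ and CTL, 0 to 3 between CPZ and RCV and 0 to 0 between RCV and CTL. The shares of all genes called in these fits are not given here. The fit on all libraries called 10.2% of all genes between CPZ and CTL and 7.01% between CPZ and RCV. Gabrg1 was called between CPZ and CTL without RCV replicate 1 or 4 (adjusted p = 0.0253 and 0.0169) and Grik5 without CTL replicate 3 or RCV replicate 2 (0.0202 and 0.0448). Between CPZ and RCV, Grik5 was called without CTL replicate 3 or 4 or RCV replicate 2 (0.0435, 0.043 and 0.0317), Grin3a without CTL replicate 4 (0.0126), Gria1 without CPZ replicate 2 (0.0361), and Gabra2 without RCV replicate 2 (0.0483), whose value was -0.16 without RCV replicate 3. The cause was not tested. limma-voom, DESeq2 size factors, both other count filters and limma on log2(TPM + 1) without a filter gave 0 in all comparisons.

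Over all genes, 56 were called between RCV and CTL, 131 with DESeq2, 16 with limma-voom, 20 with at least 10 counts in every library and 16 with limma on log2(TPM + 1) without a filter. Between CPZ and RCV 1050 were called, 584, 503 and 477 with limma on log2(TPM + 1), log2(TPM + 0.1) and log2(TPM + 1) without a filter, and between CPZ and CTL 1522, against 993 in the last of these. The median log2 fold change of the subunit genes ranged from -0.156 to -0.100 between CPZ and CTL, -0.152 to -0.072 between CPZ and RCV and -0.0407 to 0.027 between RCV and CTL when libraries were left out. The -0.072 arose without RCV replicate 1. With libraries left out, between 27 and 36 of the 36 log2 fold changes of CPZ against CTL were below 0.

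Ratios whose differences lay near 0 changed sign in 11 cases, none past the threshold, which a single ratio could not pass in these tests. With medians in place of means the log2 difference was -0.0169 for Grin2a to Grin2b (CPZ against CTL) and 0.0301 for Gabbr1 to Gabbr2 (CPZ against RCV). With libraries left out it ran from -0.0305 to 0.122 for Grin2a to Grin2b (CPZ against CTL), and for Gabbr1 to Gabbr2 from -0.129 to 0.0268 (CPZ against CTL), -0.166 to 0.0455 (RCV against CTL) and -0.0984 to 0.0973 (CPZ against RCV).

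The replicate block used the number in the titles. Same-numbered libraries of different groups correlated with r from -0.199 to 0.136 in their deviations from group means, above 0.1 in 3 of 12 pairs, and in 1 of 24 cases was the same number the best match, so that the numbers did not pair the libraries. In the replicate block fit the counts of called subunit genes were 1, 0 and 0.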
